A study of Mus musculus with 9 samples.

Results

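A short hairpin RNA directed against Camta1, named shRNA B, was compared with a control hairpin without a target in the dorsal hippocampus of adult mice. The comparison rests on 6 of the 9 RNA-seq libraries of the series, 3 with the control hairpin and 3 with shRNA B, chosen by their labels, and on every gene counted in them. Of 31804 genes in the table, 16438 had enough counts to be tested. All 6 mice were C57BL/6NCrl males, an inbred strain, with no other genetic change named. Each was injected at 8 weeks of age with a recombinant adeno-associated virus that carried its hairpin and an mCherry marker, and tissue was taken 3 weeks later. The controls therefore carried a virus, a hairpin and a red fluorescent protein as well, and no uninjected tissue was analysed here. The series' design counts 3 animals in each group. The red area was cut out under a microscope, so each library mixes infected and uninfected cells of all kinds. No source used here names the promoter behind the hairpin or the cell types that took up the virus. The remaining 3 libraries carried shRNA A, another hairpin against the same gene. They enter below through a shared estimate of the spread, the choice of genes to test and the scaling. They also enter through one test of the difference between the hairpins.

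Camta1 encodes a calmodulin-binding transcription activator of neurons. A hairpin is cut by Dicer into a short duplex that guides the degradation of the matching mRNA. Several groups of genes below are parts of the interferon system, by which cells answer foreign or misplaced nucleic acid. Sensors of RNA and DNA switch on interferon genes, secreted interferon binds receptors that act through Jak kinases, and transcription factors such as Stat2 and Irf9 then raise a large set of antiviral effectors together with the machinery that presents peptides on class I molecules. Other groups are targets of p53, the transcription factor of the DNA damage response, and genes of microglia, the brain's resident macrophages, among them complement, a set of proteins that tag material for removal.

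The 6 libraries held between 29123744 and 38189288 counts, so that 3 reads stood for 0.0776 to 0.102 CPM (read counts scaled to the library total, with TMM factors). On the first principal component, with 37.7% of the variance, the controls lay between -23.1 and -14.7 and the shRNA B libraries between 9.04 and 27.9. Replicate 2 of shRNA B lay farthest from the controls. A library is named below by its group and replicate number, such as control 1. Camk2a, a kinase of excitatory neurons, stood at 7733, 8758 and 7863 CPM in the controls and at 8533, 8334 and 8230.0 CPM with shRNA B, so neuronal RNA was present in every library. Control replicate 3 also carried transcripts of the choroid plexus, the secretory tissue of the ventricles. Ttr, its transthyretin gene, stood at 3.56, 3.09 and 935 CPM in the controls and at 7.37, 3.33 and 1.51 CPM with shRNA B. Results on genes of that tissue are given with and without this library.

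Camta1 (ENSMUSG00000014592, chromosome 4), the gene the hairpin targets, was lower in all 3 shRNA B libraries. It stood at 427, 455 and 442 CPM in control replicates 1, 2 and 3 and at 238, 146 and 266 CPM in shRNA B replicates 1, 2 and 3. The groups did not overlap, and replicate 2 of shRNA B had the lowest value. The mean with shRNA B was 49.1% ± 14.3 (SD, n = 3) of the control mean. The log2 fold change was -1.02 ± 0.22 (SE) with an adjusted p of 0.0776 in edgeR, so Camta1 did not pass the threshold of 0.05 used throughout. An exact two-sided permutation test of the 3 against 3 libraries gave p = 0.1, the smallest p that its 20 splits allow. DESeq2 gave an adjusted p of 0.00174, limma-voom 0.0408, and edgeR 0.0367 without shRNA B replicate 2, whose removal moved the log2 fold change to -0.81. In bulk tissue, here and in all results that follow, fewer cells of a type and less RNA per cell cannot be told apart. Camta2, the other member of the family, stood at 688, 964 and 856 CPM and at 835, 844 and 879 CPM, and the groups overlapped (adjusted p = 0.947 in edgeR).

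Of the 16438 genes tested, edgeR called 167, or 1.02%, at an adjusted p under 0.05. It called 128 genes (0.779%) higher and 39 genes (0.237%) lower with shRNA B. These shares are the background for the counts of list members below, and a list with a lone call or none lies near them. In all 167 the 2 groups did not overlap. Without a test, the libraries of the groups did not overlap for 1524 genes that were higher (9.27%) and 1459 that were lower (8.88%). The rises were the larger changes, with a median log2 fold change of 1.11 and 75 genes past 2-fold. The falls had a median of -0.50, and 5 genes passed 2-fold. Over all genes tested the median was 0.0013. Replicate 2 of shRNA B held the highest of the 3 values for 113 of the 128 genes that rose (88.3%) and the lowest for 26 of the 39 that fell (66.7%). Over all genes tested it was the highest of the 3 for 34.6% and the lowest for 31.2%. The same library had the least Camta1.

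The number of calls was sensitive to single libraries. Without control replicate 1, 2 or 3, edgeR called 13, 23 and 19 genes. Without shRNA B replicate 2 it called 62, and without shRNA A replicate 1 or 2 it called 103 and 98. The shRNA A libraries enter this comparison through the shared spread, the choice of genes to test and the scaling. DESeq2 called 386 genes, 166 of them among the 167. A fit on the control and shRNA B libraries alone called 42. Cdkn1a, Vim, B2m, Ephx1, Eda2r, Herc6, C1qc and I830012O16Rik were among the genes called in every fit that was run. Apart from Camta1, which stayed below control in every fit, 213 genes fall under the rule for names. Of the 100 of these that were called, 0 changed direction in any fit. Of the 113 that were not called, 29 had both signs across the fits, among them Camta2, Ifnar1, Jak2, Irf1, Mdm2, Zmat3 and Egr1, and no direction is read from those.

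**Figure D1:**
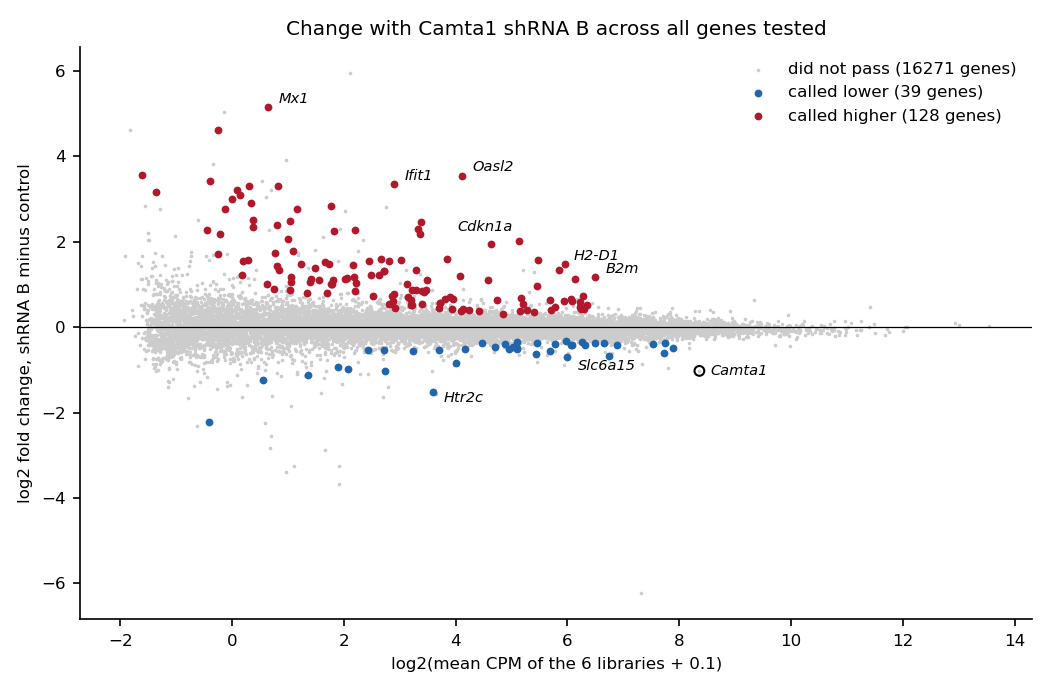
Each point is 1 of the 16438 genes tested, with its mean level over the 6 libraries on the x axis, as log2(CPM + 0.1), and its log2 fold change with shRNA B against control on the y axis. Red points are the 128 genes called higher, blue points the 39 called lower, and the open circle marks Camta1. The large rises lie at low and middle levels, with Mx1, Oasl2 and Ifit1 above 3, while most falls lie between 0 and -1.

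Genes of the interferon response made up 46 of the 128 rises. The 5 interferon-linked lists (receptors and signalling, nucleic acid sensors, antiviral effectors, interferon-inducible GTPases and class I antigen presentation) held 118 tested genes, of which these 46 rose and 0 fell. The median log2 fold change was 0.99, against 0.0013 over all genes tested. In 89 of the genes all 3 shRNA B libraries lay above all 3 controls, against 9.27% over all genes tested. The lists were written with earlier results of these data known, so the contrast with all genes may partly follow from the choice of members. The median log2 ratio to the control mean was 0.005, -0.039 and 0.022 in the controls and 0.67, 1.20 and 0.83 in shRNA B replicates 1, 2 and 3. All 3 shRNA B libraries were shifted upward, and replicate 2 was the highest for all 46 genes that rose. The number that rose was 2 without control 1, 3 without control 2 or control 3 and 30 without shRNA A 1, while the median stayed between 0.76 and 1.10 without any one library.

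Of 10 interferon genes listed, 8 could be matched by symbol, and none of these was detected. Ifna1 and Ifna5 were not matched, and interferon genes outside the list were not looked up. Ifnb1, Ifna2, Ifna4, Ifne, Ifnk, Ifng, Ifnl2 and Ifnl3, which encode type I, II and III interferons, had 0 counts in all 6 libraries, which allows up to 0.0776 to 0.102 CPM in a library, for counting error only. The receptors stayed at control levels in their values. Ifnar1, a chain of the type I receptor, stood at 46, 47.2 and 46.4 CPM in the controls and 49.3, 46.5 and 42 CPM with shRNA B. The 5 receptor genes tested had a median log2 fold change of -0.017, and 0 passed the test. Jak1, Jak2 and Tyk2, the kinases bound to these receptors, did not pass either, with log2 fold changes of 0.043, 0.027 and 0.22. Jak1 was at 219.6, 222 and 214 CPM and at 226, 233 and 216 CPM, so the groups overlapped.

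The factors downstream of the receptors were higher. Of 8 transcription factors tested, Stat2, Irf9 and Irf8 rose, and the median log2 fold change was 0.70. Stat2, a factor of the type I response, went from 28.8, 26.7 and 27.7 CPM in the controls to 37.6, 52.7 and 42.7 CPM with shRNA B. Its log2 fold change was 0.67 ± 0.11 (SE, adjusted p = 0.0239 in edgeR). Irf9, which binds DNA in the same complex, went from 11.9, 8.56 and 10.6 to 21.3, 31.2 and 18 CPM. Its exons overlap those of Rnf31, and reads of the 2 genes cannot be told apart without strand. Irf8, a factor of microglia and macrophages, went from 5.43 ± 0.768 to 8.98 ± 0.735 CPM (SD, n = 3). Irf7, which amplifies interferon production, had 1.42, 1.46 and 2.05 and 5.02, 20.1 and 9.85 CPM with an adjusted p of 0.0977. Irf1, Irf3 and Irf5 had log2 fold changes of 0.042, 0.26 and 0.24. Usp18, a protease that removes Isg15 from proteins and dampens the receptor, was the 1 negative regulator of 4 that rose, from 0.577, 0.764 and 1.07 to 2.999, 8.99 and 5.41 CPM. Of the 20 genes of this list, the number that rose was 4, and it was 0 without control 1, control 2 or control 3 and 2 without shRNA A 1 or shRNA A 2.

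Sensors of RNA and of DNA were both represented. Of 9 genes of RNA sensing, sensors and their partners, 5 rose, and of 6 genes of DNA sensing 1 did. Their median log2 fold changes were 0.86 and 0.20. Ifih1, which encodes the double-stranded RNA sensor MDA5, went from 2.54, 2.99 and 3.78 CPM to 6.72, 12.3 and 9.24 CPM, which is 1.59 ± 0.22 (SE) on the log2 scale (adjusted p = 0.0109 in edgeR). Eif2ak2, the RNA-activated kinase PKR, went from 6.48, 6.53 and 6.49 to 9.18, 14.5 and 11.8 CPM. Dhx58, which encodes LGP2, rose from 1.18 ± 0.178 to 3.34 ± 1.27 CPM, and Trim25, a ubiquitin ligase of RNA sensing, from 7.46 ± 0.524 to 13.5 ± 2.26 CPM (SD, n = 3). Ifi204, the DNA sensor that rose, belongs to the interferon-inducible p200 family and went from 0.237, 0.0637 and 0.252 to 0.905, 2.61 and 1.71 CPM. Ddx58, the gene of RIG-I, had 6.003, 6.56 and 5.61 and 9.93, 20.8 and 12.5 CPM with an adjusted p of 0.0502, just outside the threshold. Zbp1, a sensor of left-handed RNA and the fifth gene of RNA sensing that rose, had 3, 1 and 1 reads in the controls. It had 31, 65 and 44 reads with shRNA B. Summed over libraries that is a ratio of 25.6 with an exact 95% interval of 10.7 to 79.9, for counting error only. Mb21d1 and Tmem173, which encode the DNA sensor cGAS and its adaptor STING, overlapped between the groups, with 2.44 ± 0.139 and 2.59 ± 0.227 CPM and 4.19 ± 0.367 and 4.4 ± 0.332 CPM (SD, n = 3). Tbk1, the kinase below both pathways, was at 55.2, 53.4 and 55.5 CPM and at 53.9, 54.8 and 54.8 CPM. The 6 genes of this list that rose became 0 without control 1 and 1 without control 2 or control 3.

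Antiviral effectors rose as a broad group. Of 46 tested, 26 rose and 0 fell, against 0.779% and 0.237% over all genes tested. The median log2 fold change was 1.57. The Ifit genes encode proteins that hold back foreign RNA at the ribosome, and all 3 rose. Ifit1 went from 1.42, 1.34 and 1.13 CPM to 6.44, 22.4 and 11.3 CPM, which is 3.35 ± 0.56 (SE) on the log2 scale (adjusted p = 0.0443 in edgeR). Each shRNA B library lay above every control, and replicate 2 was far above the other 2. Ifit3 went from 2.58, 2.9 and 3.94 to 11.1, 24.7 and 16.6 CPM, and Ifit2 from 5.39 ± 0.6995 to 9.28 ± 1.9 CPM (SD, n = 3).

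Of 7 Oas genes tested, which encode 2'-5' oligoadenylate synthetases and their relatives, Oasl2 and Oas1g rose. Oasl2 had 2.65, 2.74 and 2.71 CPM in the controls, a narrow range, and 18.1, 48.7 and 28 CPM with shRNA B. Oas1a, Oas1b, Oas2 and Oasl1 had log2 fold changes of 2.31, 3.05, 2.27 and 3.82 and did not pass the test. Reads of the near-identical Oas, Ifit, Gbp and H2 genes can be split between copies, so single members are uncertain.

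Of the Mx and Isg15 group 5 of 6 rose. Mx1, a dynamin-like GTPase against viruses, had 4, 2 and 1 reads in the controls and 58, 147 and 75 reads with shRNA B, a ratio of summed reads of 36.5 (exact 95% interval 17.5 to 91.6, counting error only). Mx2 went from 0.509, 0.477 and 0.567 to 1.42, 4.43 and 2.41 CPM. Isg15, a ubiquitin-like modifier, had 1.36, 1.08 and 1.29 and 2.92, 10.2 and 5.44 CPM with an adjusted p of 0.0767, while Uba7, its activating enzyme, rose from 2.5 ± 0.332 to 5.46 ± 2.02 CPM (SD, n = 3). Bst2, or tetherin, which holds budding virions at the membrane, went from 3.15, 2.9 and 4.06 to 10.3, 26.3 and 13 CPM. Ifitm3, a membrane protein that blocks virus entry, went from 7.05, 7.03 and 7.3 to 16, 31.3 and 17 CPM, whereas its neighbours Ifitm1 and Ifitm2 had log2 fold changes of 0.56 and -0.25 and did not pass. Lgals3bp, a secreted galectin-binding protein, rose from 13, 12.8 and 15.6 to 38, 85.3 and 45.2 CPM. Parp9 and Parp14, ADP-ribosyltransferases of the interferon response, rose by 1.23 and 1.57 on the log2 scale, and Zc3hav1, a zinc finger protein that binds viral RNA, by 0.87. Exons of Parp9 overlap those of Dtx3l. Ddx60, Ifi44, Rtp4, Xaf1, Trim30a, Herc6 and Znfx1 rose as well, between 0.43 and 3.30. Cmpk2 and Slfn5 did not pass, with log2 fold changes of 0.096 and 0.47. The number of effectors that rose was 1 without control 1, control 2 or control 3 and 15 without shRNA B 2.

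Interferon-inducible GTPases, which attack the membranes around intracellular pathogens, had 4 of 12 tested members called higher. Over all genes tested 0.779% were called higher. All 12 had a positive log2 fold change, with a median of 1.49. Gbp3 went from 3.46, 3.47 and 4.12 CPM in the controls to 12.1, 24.7 and 13.4 CPM with shRNA B. Irgm1, an immunity-related GTPase, went from 5.43, 5.86 and 5.1 to 9.31, 19.2 and 13 CPM. Gbp5 and Gbp7 rose by 1.53 and 1.21 on the log2 scale. Without control 1, 2 or 3 the number that rose was 0, and without shRNA A 1 it was 2.

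Class I antigen presentation, which displays peptides of a cell's own proteins to T cells, had 6 of 20 tested genes called higher and 0 called lower. Over all genes tested the shares were 0.779% and 0.237%. Of 8 chains 4 were called, with a median log2 fold change of 1.4. B2m, the light chain shared by all class I molecules, went from 51.2, 58.6 and 56.1 CPM to 103, 151 and 118 CPM, which is 1.16 ± 0.12 (SE) on the log2 scale (adjusted p = 0.00611 in edgeR). All 3 shRNA B libraries were well above the 3 controls. H2-D1 and H2-K1, classical heavy chains, went from 30.4, 35.2 and 32.4 to 62.3, 123 and 88.3 CPM and from 21.9, 22.5 and 23.1 to 45.5, 94.7 and 59.1 CPM. H2-T22, a non-classical chain, rose by 0.83 on the log2 scale. Tap1, a subunit of the peptide pump of the endoplasmic reticulum, went from 3.52 ± 0.293 to 10.3 ± 4.78 CPM (SD, n = 3), and its exons overlap those of Psmb9. Psmb8, a subunit of the immunoproteasome, went from 2.72 ± 0.0711 to 6.17 ± 1.83 CPM. Canx, the chaperone calnexin, had the highest CPM of the list, with 432 ± 19.1 and 396 ± 28.6 CPM (adjusted p = 0.577 in edgeR). The number of class I genes that rose was 1 without control 1, control 2 or control 3, 3 without shRNA A 3 or shRNA B 3 and 11 without shRNA B 1. Of 7 class II genes tested, which present material taken up from outside, 0 passed the test, and their median log2 fold change was 0.56.

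**Figure D2:**
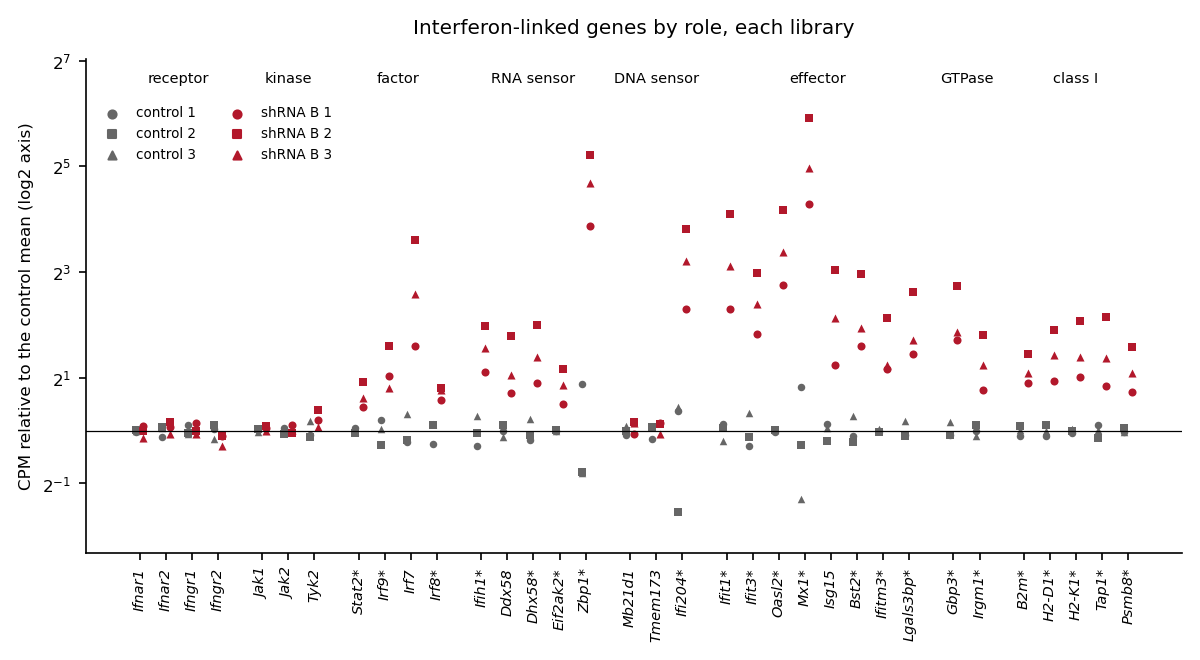
Each point is the CPM of 1 gene in 1 library divided by the mean of the 3 control libraries, on a log2 axis. Grey symbols are control libraries, red symbols shRNA B libraries, symbol shapes are the replicate numbers, and an asterisk marks a gene that passed the test. Receptors and kinases lie near 1, while effectors, GTPases and class I genes lie above it in all 3 shRNA B libraries, with replicate 2 (squares) the highest.

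Promoters of the called genes were read for the interferon-stimulated response element, a DNA site of the complex that holds Stat2 and Irf9, as the letters GAAA, any 2 bases and GAAA again, on either strand and with overlapping matches included. Sequences came from RefSeq promoters of build GRCm38.p6, from 250 bases before to 50 bases after a gene's start, which were found for 120 of the 167 called genes. The 8 windows of 45 bases that follow are from genes described above and are shown because they hold this motif, which stands in capitals. Each is printed 5′ to 3′ in the direction of its gene.
B2m (chr2:122147531-122147575, plus strand): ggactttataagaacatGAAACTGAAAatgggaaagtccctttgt
H2-T22 (chr17:36042906-36042950, minus strand): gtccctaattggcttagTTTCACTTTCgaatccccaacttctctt
Gbp5 (chr3:142496752-142496796, plus strand): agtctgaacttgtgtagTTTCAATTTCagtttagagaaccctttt
Ifit3 (chr19:34583373-34583417, plus strand): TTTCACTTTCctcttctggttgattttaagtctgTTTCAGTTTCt
Ifit1 (chr19:34640777-34640821, plus strand): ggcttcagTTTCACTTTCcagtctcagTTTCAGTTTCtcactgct
Ddx60 (chr8:61928034-61928078, plus strand): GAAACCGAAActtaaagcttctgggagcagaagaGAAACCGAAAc
Stat2 (chr10:128270259-128270303, plus strand): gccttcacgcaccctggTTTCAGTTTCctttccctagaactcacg
Bst2 (chr8:71537572-71537616, minus strand): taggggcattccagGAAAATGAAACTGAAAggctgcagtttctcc
On the other strand a match reads as TTTC, any 2 bases and TTTC. Ifit1, Ifit3, Ddx60 and Bst2 each hold 2 matches in their windows, and in Bst2 the 2 share 4 letters. The motif was in 24 of 97 matched promoters of genes called higher (24.7%) and in 1 of 23 of genes called lower (4.35%). It was in 3.69% of 10922 matched promoters of tested genes and in 3.44% of all 32851 promoters of the table. Among genes called higher it was in 17 of 36 promoters of the 5 interferon-linked lists (47.2%) and in 7 of 61 of the others (11.5%). It was also in 16 of 55 promoters of list genes that were not called (29.1%). The letters CGCG, a core of sites reported for calmodulin-binding transcription activators, were in 43.3% of promoters of genes called higher and 52.2% of those called lower, against 72.1% over tested genes. A match is a description of the letters in this window, and binding of any factor was not measured.

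Complement genes of the classical pathway rose together. Of 9 tested, 7 rose, and of 9 receptors and inhibitors 0 did, with median log2 fold changes of 0.66 and 0.17. Over all genes tested 0.779% were called higher. C1qa, C1qb and C1qc encode the 3 chains of the recognition molecule C1q. C1qc went from 46.9, 50.2 and 49.1 CPM in the controls to 64.9, 80.2 and 77.7 CPM with shRNA B (log2 fold change 0.61 ± 0.078 SE, adjusted p = 0.00855 in edgeR), and C1qa from 47.8, 55.6 and 51.9 to 71.7, 89.4 and 85 CPM. The groups did not overlap for either gene. C4b, the complement factor that C1 cleaves, went from 27.1, 33.2 and 38.3 to 61.5, 104 and 83.7 CPM, and C4a, its near-identical copy, also rose, by 1.31 on the log2 scale. The authors' counting could split reads between these 2 copies. C3, the central factor, went from 0.203, 0.668 and 0.882 to 3.62, 4.31 and 2.09 CPM, and C1ra, a protease of C1, from 0.962 ± 0.0644 to 2.43 ± 0.953 CPM (SD, n = 3). The number of complement genes that rose was 1 without control 1 or control 3, 2 without control 2, 3 without shRNA A 1, shRNA A 2 or shRNA B 2 and 4 without shRNA B 3.

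Most markers of microglia lay higher with shRNA B, and some passed the test. Of 25 tested, 6 rose, and 23 lay above 0, at a median of 0.23. In 18 of the 25 the shRNA B libraries were higher without overlap, against 9.27% over all genes tested. The members that rose were the 3 C1q genes, Ctss, Fcer1g and Ly86. Ctss, the lysosomal protease cathepsin S, went from 56.5, 50.8 and 52 to 73.2, 90.3 and 81.4 CPM, and Fcer1g, an adaptor of Fc receptors, from 5.73 ± 0.413 to 8.84 ± 1.35 CPM (SD, n = 3). Csf1r, the receptor on which microglia depend for survival, had 133, 141 and 126 and 146, 149 and 164 CPM, a log2 fold change of 0.20 ± 0.073 that did not pass (adjusted p = 0.281 in edgeR). The summed level of the list was 846, 869.6 and 824 CPM in the controls and 988, 1073 and 1093 CPM with shRNA B, so that the groups did not overlap. Of 20 genes of activated microglia, Itgax, Cst7 and Tlr2 rose. Itgax, the integrin CD11c, went from 0.271, 0.446 and 0.346 to 1.29, 2.96 and 1.9 CPM, whereas Apoe, a lipid carrier made by astrocytes too, had 2008 ± 103 and 1987 ± 102 CPM. The number of microglial markers that rose was 1 without control 1 or control 3, 2 without control 2 and 3 without shRNA B 2, and that of activated microglia was 0 without control 1 or control 3, 1 without control 2 or shRNA B 2 and 8 without shRNA B 1. None of the 25 markers was at 0 in any library. The part of microglial number in the interferon-linked and complement changes was not tested.

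Other immune cells were represented by few reads in their lists, with exceptions outside them. Of 18 genes of T, B and natural killer cells, 2 had enough counts to be tested and 0 passed. Cd3e, a chain of the T cell receptor complex, had 1, 1 and 0 reads in the controls and 1, 3 and 2 with shRNA B, and Cd8a had 0, 0 and 2 and then 0, 9 and 5. Cd8b1 had 1, 0 and 2 reads and then 0, 5 and 9, and Prf1, the perforin of killer cells, had 0 reads in each control and then 3, 5 and 1. Ighm and Lag3 stood in no list and were chosen for mention after their values were seen. Ighm, the heavy chain of immunoglobulin M made by B cells, rose from 5.77, 8.05 and 9.23 to 12.8, 15.1 and 14.7 CPM, with a log2 fold change of 0.88 ± 0.16 (SE) and an adjusted p of 0.0271 in edgeR. Lag3, a checkpoint receptor of lymphocytes, rose from 4.71, 5.95 and 6.52 to 8.09, 13.9 and 12.9 CPM (adjusted p = 0.0339). The groups did not overlap for either gene. Their part in the interferon-linked changes was not tested. Of 12 monocyte and neutrophil genes 7 were tested and 0 passed. S100a8, a neutrophil gene, had at most 2 reads in a library. The chemokine Ccl12 was the 1 gene of 15 tested chemokines and cytokines that rose, from 0.17, 0.159 and 0.283 to 0.595, 2.14 and 1.54 CPM. The 9 chemokines among them had a median log2 fold change of 2.76, with 8 above 0. In 7 of the 9 all shRNA B libraries lay above all controls, against 9.27% over all genes tested. The 6 cytokines had a median of 0.048, with 3 above 0. Cxcl10, an interferon-inducible chemokine that attracts T cells, was chosen for mention after its values were seen. It had 0.0339, 0.191 and 0.157 CPM in the controls and 3.9, 14.5 and 6.37 CPM with shRNA B, with an adjusted p of 0.0551. Tnf, Il6 and Il1b, cytokines of acute inflammation, had too few counts to be tested, with at most 8 reads in any of the 6 libraries. The chemokines Ccl4, Ccl7, Cxcl11 and Cxcl13 were not tested either. Ccl4 had 1, 1 and 0 reads in the controls and 11, 18 and 6 with shRNA B. Cxcl13 had 0, 0 and 0 and then 6, 16 and 8. Ccl7 had 0, 0 and 1 and then 4, 4 and 4, while Cxcl11 overlapped, with 2, 0 and 1 and then 1, 6 and 1.

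Most listed genes of reactive astrocytes lay higher with shRNA B, and few astrocyte genes passed the test. Vim, which encodes the intermediate filament vimentin of reactive astrocytes and of several other cell types, went from 43.5, 44.8 and 43.6 CPM to 85.7, 121 and 81.9 CPM. The log2 fold change was 1.13 ± 0.13 (SE, adjusted p = 0.00623 in edgeR), and it lay between 0.93 and 1.23 without any one of the 6 libraries. Gfap, the filament that marks astrocytes, had 434, 537 and 539 and 744, 958 and 653 CPM. Its groups did not overlap, and it missed the threshold with a log2 fold change of 0.64 ± 0.14 and an adjusted p of 0.0608, which was 0.0223 without shRNA B 3 and 0.000248 with DESeq2. Of 26 tested genes of reactive astrocytes, 22 lay above 0, at a median log2 fold change of 0.25. In 10 of them the shRNA B libraries were higher without overlap, against 9.27% over all genes tested. Vim, H2-D1 and Psmb8 rose, and H2-D1 and Psmb8 also stand in the class I list. The number that rose was 1 without control 1, control 2 or control 3 and 5 without shRNA B 1. Of 18 markers of astrocytes in general, Aldh1l1, a folate enzyme, rose from 63, 66 and 58 to 81.7, 90.4 and 87.3 CPM, and the median log2 fold change was -0.021. Agt, the angiotensinogen that astrocytes secrete, fell from 24.2, 19.9 and 17.4 to 11.7, 9.69 and 13.1 CPM.

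Targets of p53 rose in a subset. Of 38 tested, 10 rose and 0 fell, against 0.779% and 0.237% over all genes tested. The median log2 fold change was 0.20. Cdkn1a, the cell cycle inhibitor p21, went from 12, 10.1 and 8.53 CPM in the controls to 30.5, 51.4 and 35.6 CPM with shRNA B, which is 1.94 ± 0.19 (SE) on the log2 scale (adjusted p = 0.00623 in edgeR). The lowest shRNA B library was more than 2-fold above the highest control. Ephx1, the microsomal epoxide hydrolase, went from 25.2, 31.4 and 32 to 54.1, 65.5 and 53.8 CPM, a log2 fold change of 0.97 ± 0.099 (SE). Phlda3, an inhibitor of Akt, went from 12.8, 17.5 and 15.2 to 28.9, 38.7 and 29.7 CPM, and Ccng1, cyclin G1, from 62.1, 56.5 and 55.4 to 90.2, 111 and 89.1 CPM. Eda2r, a death receptor for ectodysplasin, had 2, 12 and 5 reads in the controls and 71, 87 and 50 reads with shRNA B, a ratio of summed reads of 9.99 (exact 95% interval 6.24 to 16.9, counting error only). Lrdd, the table's older symbol for the death domain adaptor Pidd1, went from 1.7, 1.72 and 1.98 to 3.1, 4.68 and 3.8 CPM. Gtse1, Aen, Pmaip1 and Casp1 rose too, with log2 fold changes between 0.40 and 2.07. Other well-known targets did not pass. Mdm2, the ubiquitin ligase that degrades p53, had 58.5, 54.6 and 57.7 and 62.2, 60.2 and 53.1 CPM, and Bax, Bbc3, Zmat3 and Sesn1 had log2 fold changes of 0.19, 0.029, -0.0038 and -0.099. Trp53 itself had 17.9 ± 2.4 and 21.5 ± 2.08 CPM (SD, n = 3, adjusted p = 0.31 in edgeR). The number of p53 targets that rose was 4 without control 2 or control 3, 5 without control 1 and 6 without shRNA B 2. All 10 were highest in shRNA B replicate 2, which was also the highest for 113 of all 128 genes that rose (88.3%).

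**Figure D3:**
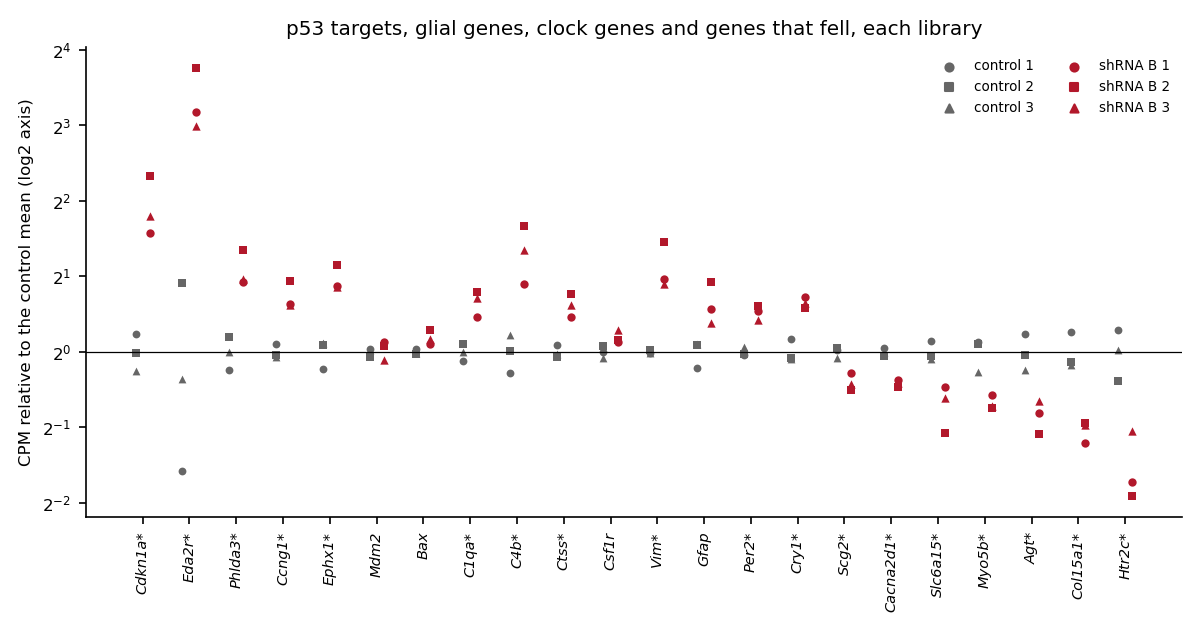
Each point is the CPM of 1 gene in 1 library divided by the control mean, on a log2 axis, with grey symbols for control and red symbols for shRNA B libraries, shapes for replicate numbers and an asterisk for genes that passed the test. Cdkn1a, Eda2r, Phlda3, Ccng1, Ephx1, C1qa, C4b, Ctss, Vim, Per2 and Cry1 lie above 1 in all 3 shRNA B libraries, Mdm2, Bax and Csf1r stay near it, and the genes from Scg2 to Htr2c lie below it.

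Of 17 tested genes of the circadian clock, the feedback loop that times daily rhythms, the repressors Per2 and Cry1 rose. Per2 went from 65.1, 65.6 and 69.6 CPM to 97.2, 102 and 89.1 CPM, and Cry1 from 13.5, 11.4 and 11.2 to 19.99, 17.9 and 18.8 CPM, both without overlap. The changes were 0.53 ± 0.07 and 0.65 ± 0.092 (SE) on the log2 scale. Without control 1, 2 or 3, 1 clock gene was called. The labels state no hour of day for the tissue. Aldh1a1, an enzyme of retinoic acid synthesis, rose from 66.2, 66.2 and 68.5 to 95.1, 92.3 and 82.2 CPM. Herpud1, a gene of the unfolded protein response, rose from 46.2, 45.4 and 45.1 to 75.4, 58.5 and 56.9 CPM and was the 1 gene of 17 stress genes that passed. Mmp2, a matrix protease, rose from 2.81, 3.12 and 3.02 to 5.38, 7.83 and 5.05 CPM, and Cox6b2, a subunit of cytochrome oxidase typical of testis, from 1.19, 1.72 and 2.24 to 4.4, 6.29 and 3.6 CPM. Of 14 genes that process hairpins and microRNAs, among them those of Dicer and the Argonaute proteins, 0 passed, with a median log2 fold change of 0.0073. Of 43 ribosomal protein genes 37 lay above 0, at a median of 0.12, and 0 passed.

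The 39 genes that fell did so by less. Only 6 of them stood in any of the lists, and 0 in the 5 interferon-linked lists. Htr2c, a serotonin receptor of neurons that the choroid plexus also makes in large amounts, had the largest fall among those at 1 CPM or more, from 21.6, 13.5 and 17.9 CPM in the controls to 5.38, 4.72 and 8.53 CPM with shRNA B. The log2 fold change was -1.51 ± 0.23 (SE, adjusted p = 0.0239 in edgeR), and it was -1.51 with an adjusted p of 0.0675 without control 3, the library with choroid plexus transcripts. The adjusted p was 0.0883 without control 1, 0.0521 without shRNA B 1 and 0.0542 without shRNA B 2. Control replicate 2, with the lowest Htr2c of the 3, was still above every shRNA B library. Slc6a15, a neuronal transporter of neutral amino acids, fell from 86.5, 75.5 and 73.3 to 56.6, 37.4 and 51.3 CPM. Myo5b, a myosin motor of recycling endosomes, fell from 145, 142 and 109.8 to 88.9, 78.9 and 80.4 CPM, and Tmx4, a thioredoxin-like membrane protein, from 256 ± 14 to 169 ± 24.5 CPM (SD, n = 3). Gpc3, a heparan sulfate proteoglycan of the cell surface, fell from 5.87, 4.04 and 4.34 to 2.46, 2.36 and 2.64 CPM. Mlip, Dhrs3 and Blcap also fell, with changes of -0.55, -0.53 and -0.42 on the log2 scale.

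Further genes that fell were members of a channel, an activity-regulated and a granule cell list, or had a low adjusted p. Cacna2d1, an auxiliary subunit of calcium channels and the target of gabapentin, fell from 141, 129.9 and 135 to 105, 98 and 101 CPM and was the 1 gene of 24 calcium and sodium channel genes that passed. Cdh13, a cadherin without a cytoplasmic domain, fell from 43.8, 38.2 and 38.1 to 28.9, 25 and 30.4 CPM. Scg2, secretogranin II of dense-core vesicles, fell from 216, 219 and 199 to 174, 148 and 157 CPM and was the 1 gene of 30 activity-regulated genes that passed, while Egr1, an immediate early factor, had 153, 328 and 249 and 240.4, 284 and 306 CPM. Glp1r, the receptor for glucagon-like peptide 1, fell from 1.66, 0.7003 and 0.882 to 0.233, 0.189 and 0.258 CPM at a level near 1 CPM, and its adjusted p was above 0.05 without any one of the 6 libraries. Adcyap1r1, the receptor for the neuropeptide PACAP, was chosen for mention after its values were seen and fell from 309.9, 238 and 279 to 212, 194 and 181 CPM.

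Markers of meninges and of the choroid plexus were uneven among the controls. Of 20 tested genes of meninges and fibroblasts, Col15a1 and Slc6a13 fell, Aldh1a1 rose, and 17 lay below 0 on the log2 scale. The list median was -0.45. Col15a1, a basement membrane collagen, fell from 10.6, 8.12 and 7.9 to 3.85, 4.62 and 4.54 CPM, and Slc6a13, a GABA and taurine transporter of the meninges, from 7.05, 4.71 and 4.69 to 3.36, 2.17 and 2.73 CPM. The summed level of the list was 279.9, 228 and 304 CPM in the controls and 251, 241 and 226 CPM with shRNA B. Without control 1 neither gene passed, with log2 fold changes of -0.89 and -0.76 (adjusted p = 0.0584 and 0.145 in edgeR), and the list median was -0.26. Slc6a13 also missed the threshold without control 2 or 3, shRNA A 1, 2 or 3, or shRNA B 2 or 3. For 13 tested genes of the choroid plexus and ependyma the median was -1.08, and without control replicate 3 it was 0.12, so no direction is given. The part of uneven dissection in these falls was not tested.

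In the lists of neuronal cell types, presynaptic release and glutamate and GABA receptors, Glp1r was the 1 call, and the medians lay below 0. Over all genes tested 1.02% were called, so an absence of calls in lists of this size lies near that share. Of 22 general neuronal genes 0 passed, with a median log2 fold change of -0.092. The 30 genes of presynaptic release had a median of -0.11 with 26 negative, and the 33 glutamate receptor genes a median of -0.094. All 15 tested GABA receptor genes lay below 0, at a median of -0.11, and 0 passed. With library size scaling, which moves the median of all genes to 0.022, 12 of the 15 lay below 0. Gabbr1, a subunit of the metabotropic receptor, had 702, 785 and 752 and 703, 737 and 769 CPM, so the groups overlapped. The 19 interneuron genes had a median of -0.21, with 14 below 0 and 5 lower without overlap, against 8.88% over all genes tested, and 0 passed. DESeq2 called 2 of them lower, and edgeR called 2 without shRNA B 3 and 1 without shRNA B 2. Of 9 CA1 pyramidal cell genes 8 lay below 0, at a median of -0.12, which was 0.031 without shRNA B 1. For 15 genes of CA2 and CA3 the median was -0.058. Of 17 dentate granule cell genes Glp1r alone passed, 16 were negative, and the median of -0.24 was -0.045 without shRNA B replicate 3. Of 23 genes of oligodendrocytes and myelin 0 passed, and the median was 0.26. Mbp, myelin basic protein, had 1609, 2765 and 2485 and 3545, 1890.0 and 4064 CPM, with wide ranges that overlapped. Endothelial genes had a median of -0.029, with 0 called of 22.

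**Figure D4:**
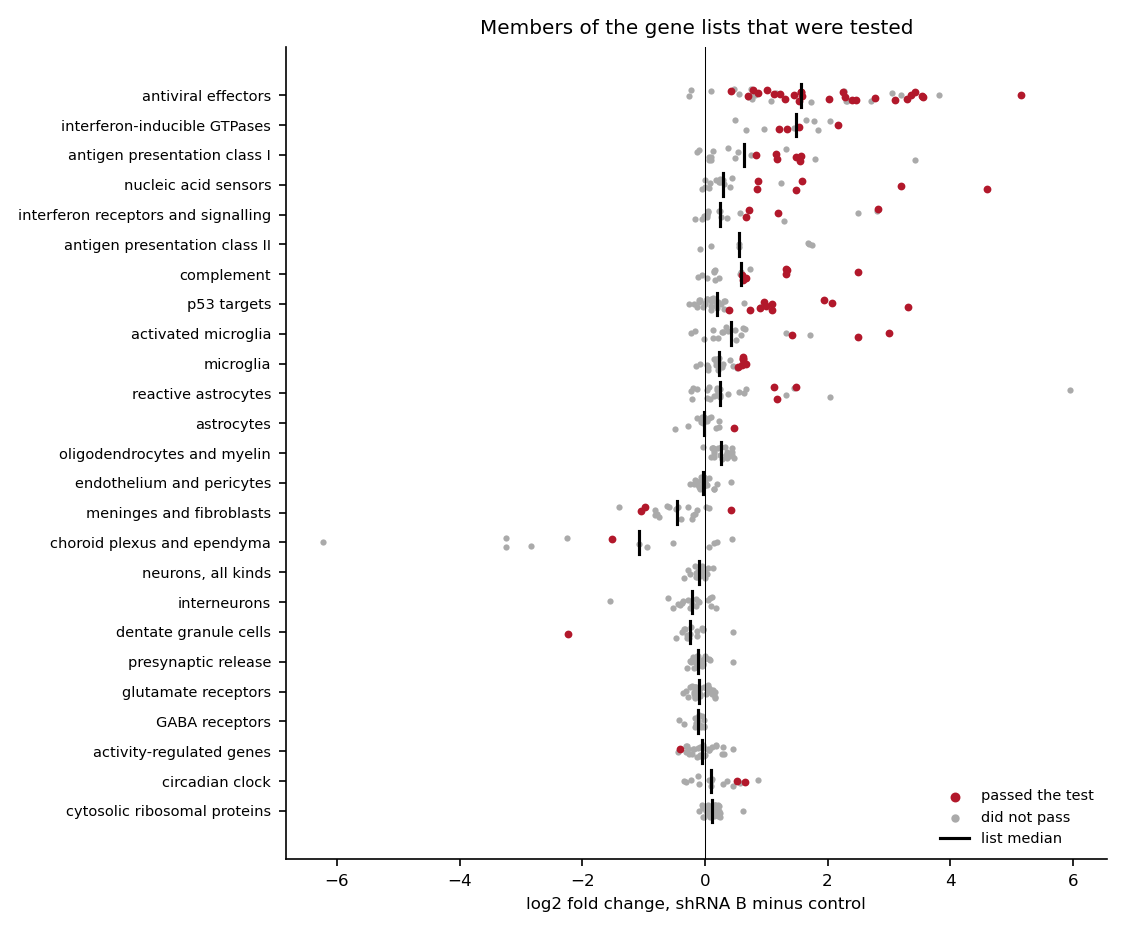
Each point is 1 tested gene of a list, placed by its log2 fold change with shRNA B against control, with red points for genes that passed the test, grey points for those that did not, and a black bar for the list median. The upper 5 lists reach far to the right, with effectors at a median of 1.57, while most neuronal lists lie a little below 0 and the choroid plexus list spreads to the left.

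Gdf15, Siglec1 and Icam1 stood in no list, rose, and were chosen for mention after their values were seen. Gdf15, a secreted stress factor, went from 0.0339, 0.0637 and 0.063 to 0.233, 0.818 and 0.515 CPM, from at most 2 reads in each control. Siglec1, a sialic acid receptor of macrophages, went from 0.373, 0.286 and 0.378 to 1.03, 1.54 and 0.837 CPM, and Icam1, an adhesion molecule, from 2.41, 1.75 and 2.3 to 3.98, 6.26 and 3.64 CPM. Klk6, a serine protease of oligodendrocytes, was among the 15 largest rises, from 0.373, 0.446 and 0.346 to 1.45, 2.52 and 2.06 CPM. In all, 78 of the 128 genes that rose stood in at least 1 list.

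The difference between the hairpins was tested directly. For shRNA B minus shRNA A edgeR called 0 genes (0%), with 1536 at an unadjusted p under 0.05. DESeq2 called 123, and edgeR called 38 without shRNA B replicate 1 and 110 without shRNA B replicate 3, so the absence of calls is no sign that the hairpins act alike. Camta1 was at 230.5, 174 and 254 CPM with shRNA A, and its difference between the hairpins was -0.018 ± 0.21 on the log2 scale (SE). Vim, the gene with the lowest p of this test, had a difference of 1.02 ± 0.12 (SE, unadjusted p = 6.05e-06, adjusted p = 0.0905 in edgeR), and its levels with shRNA A were 45.9, 50.1 and 46.4 CPM. Cry1 was at 11.5, 11.8 and 13 CPM with shRNA A, a difference of 0.64 ± 0.092 with the same adjusted p. C3, at 0.511, 0.547 and 0.164 CPM with shRNA A, had a difference of 3.02 ± 0.47, and C4b, at 36.6, 37 and 27.2 CPM, one of 1.30 ± 0.21 (adjusted p = 0.0905 and 0.125).

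Levels with shRNA A are given beside those above for genes of the p53 and interferon-linked lists. None of these differences passed the test. Cdkn1a was at 30.03, 28.5 and 26.4 CPM and Ephx1 at 51.9, 53.1 and 51.4 CPM with shRNA A, with differences between the hairpins of 0.46 ± 0.18 and 0.15 ± 0.097 (SE, adjusted p = 0.471 and 0.68 in edgeR). Oasl2 was at 11.8, 8.14 and 3.14 CPM, with a difference of 2.03 ± 0.50 and an adjusted p of 0.307. B2m lay between control and shRNA B at 85.6, 77 and 73 CPM with a difference of 0.66 ± 0.12 (adjusted p = 0.129). Both hairpins were set against the same 3 control libraries, so their changes from control are not independent. The median log2 fold change from control of the 5 interferon-linked lists was 0.99 with shRNA B and 0.30 with shRNA A, and that of the p53 list was 0.20 and 0.057. Called members of the p53 list were uneven around these medians. Eda2r, Phlda3, Ccng1 and Aen had 2.97, 0.88, 0.55 and 0.37 with shRNA A, against 3.3, 1.09, 0.74 and 0.40 with shRNA B. Gtse1, Lrdd and Pmaip1 had 0.68, 0.33 and 0.21 with shRNA A, against 2.07, 1.1 and 0.90 with shRNA B. Some genes outside these lists also changed with both hairpins. Mmp2, Cox6b2 and Aldh1a1 had 1.33, 1.85 and 0.42 with shRNA A, against 1.02, 1.47 and 0.42 with shRNA B. Col15a1 and Glp1r had -0.83 and -1.82 with shRNA A, against -1.035 and -2.23 with shRNA B.

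**Figure D5:**
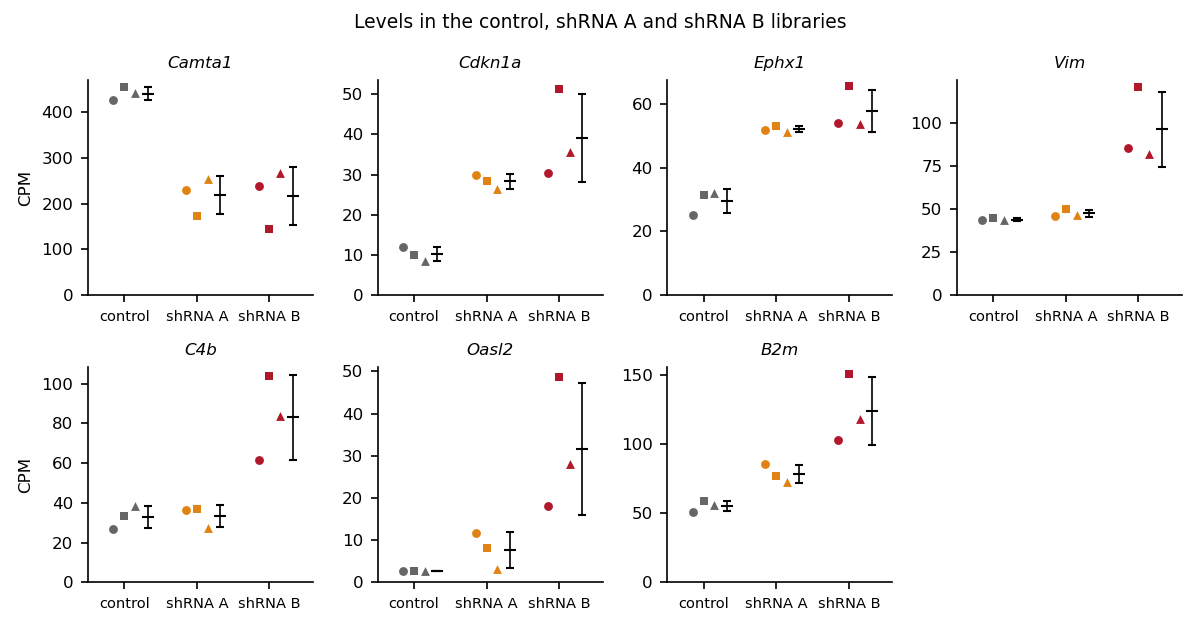
Levels of 7 genes in CPM, with 1 panel a gene, symbols for single libraries by replicate number, and black bars for the mean and SD of 3 libraries. Camta1 lies below control with both hairpins, and Vim and C4b lie higher with shRNA B than in the other 6 libraries.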

How the data were processed

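PolyA RNA-seq libraries without strand were made from hippocampal tissue, per the labels' protocols. The authors deposited whole-number read counts per gene. Genome build mm9 and the programs TopHat (1.4.1), SAMtools (0.1.19), HTSeq (0.6.1) and DESeq2 (1.4.5, in R 3.1.1) are listed, per the submitters' processing notes. Their settings are not given in the sources used here, and the deposited fold changes were not used. Of the gene symbols, 20478 stand in the table and 6546 were looked up in a list of gene names, and 4780 genes kept their identifier.

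Counts were fitted in R 4.3.3 with edgeR 4.0.16 (filterByExpr by group, TMM, robust quasi-likelihood test, two-sided, Benjamini-Hochberg over 16438 genes, threshold 0.05) on all 9 libraries, which share one spread (biological coefficient of variation 9.45%). Standard errors are the log2 fold change over the square root of F. Alternatives were DESeq2 1.42.0, limma-voom (limma 3.58.1), other scalings, no filter, 2 groups alone, a replicate block and each library left out. On counts simulated for this comparison over 16330 genes, the test recovered 58.2%, 86.6% and 100% of genes changed 1.5-, 2- and 4-fold. It made 12 false calls of 175. The changed genes had a mean of at least 1 CPM, and counts were drawn independently, with no shift shared by the genes of a library. In the real data shRNA B replicate 2 was the highest for 113 of the 128 genes that rose. Recovery of real changes can therefore be lower, and Irf7, with a log2 fold change of 2.81, did not pass.

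Libraries within a group differed beyond counting noise (chi-square per degree of freedom 13.1 to 20.3), and p-values measure the spread between the animals the design counts. Same-numbered libraries did not deviate together (correlations -0.13 to -0.058, against -0.044 to 0.12 for unlike numbers). With so few libraries these correlations cannot exclude a pairing, and the main fit used none. Exon overlaps of at least 100 bases were taken from GENCODE M21 (GRCm38) and touch 47 of 214 named genes. Named genes were Camta1, the 15 largest rises and falls among called genes at 1 CPM or more, the 10 lowest adjusted p each way, up to 6 called members and the highest-CPM member of each list, and members of the interferon and p53 lists. The members and the 44 lists were chosen with earlier results of these data known. Promoter letters were read from RefSeq sequences. Some genes are not reported here.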

Additional observations from a re-analysis of the deposited data

How the results depend on the processing

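Counts for shRNA B against control (called, higher, lower) were 167, 128 and 39. They were 386, 224 and 162 with DESeq2, 95, 74 and 21 with limma-voom, 42, 37 and 5 with the control and shRNA B libraries alone, and 64 lower without the low-count filter, which called 208 in all. Leaving out each library gave 13 to 217 called, 12 to 174 higher and 1 to 51 lower. The lowest values were those without a control, where 2 controls remain. No paired samples are known, and the replicate block gave 148 called (117 higher, 31 lower), 118 of them among the 167. Other scalings gave 157 to 166 called, and the median of all genes moved to 0.022 at most. For shRNA B minus shRNA A edgeR called 0 genes, DESeq2 123, the unfiltered fit 21, the replicate block 1, voom and the other scalings 0, and leaving out each library 0 to 110. The log2 fold change of Camta1 was -1.03 with DESeq2, -1.07 with limma-voom, -1.02 with robust estimation off and -1.08 with the replicate block, all past the threshold, and -1.20 to -0.81 leaving out each library, past it only without shRNA B replicate 2. Of 100 named genes that were called, 0 reversed under these alternatives, while 29 of 113 that were not called had both signs. The cause of these shifts was not tested. Depth limits calls of small changes and of genes near 3 reads.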
